A study of Homo sapiens with 6 samples.

Results

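Among the 14917 peaks called on chromosomes 1 to 22 and X in the first of 2 precipitations of the DEK protein, 234 were compact, rich in sequence tags and without a counterpart in the second precipitation. A peak counted as one of these members when no base of it overlapped any peak of precipitation 2, when it held at least 100 tags and when it was at most 1500 bp long. Both DEK lists together hold 167796 peaks. The material was U937, an established human myeloid cell line that grows in suspension, crosslinked with formaldehyde and sheared by sonication, with no treatment or altered gene named in the labels. The labels list 2 DEK precipitations, 2 precipitations of histone H3 trimethylated at lysine 4 (H3K4me3) and 2 samples of non-precipitated chromatin. The peak lists of the DEK and H3K4me3 precipitations were analysed, and the study describes the DEK precipitations as independent experiments under the same conditions.

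DEK is an abundant chromatin protein that binds DNA by its structure more than by a fixed sequence, and it is fused to the nucleoporin NUP214 in a form of acute myeloid leukaemia. H3K4me3 is a histone mark known from the promoters of active and poised genes, and it also occurs at some active enhancers. PU.1 (encoded by SPI1), RUNX1 and the C/EBP proteins are transcription factors that together set up the regulatory regions of myeloid cells. PU.1 belongs to the ETS family, whose members bind sequences built around GGAA.

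The 234 peaks lay mostly away from annotated starts of transcription, yet most of them carried H3K4me3, and their summits lay mostly in unique sequence, with letters of ETS, RUNX1 and C/EBP sites more often than in the list as a whole. The letters are shown here for 5 windows of 300 bp centred on the summit (GRCh37, whose chromosomes 1 to 22 and X have the sequence of hg19). The 5 were taken from the peaks with the most tags, with the highest fold enrichment and near a start. Capitals mark 3 short motifs wherever they stand on either strand. GAGGAA, which reads TTCCTC on the opposite strand, is part of the site of PU.1. AGGAAG, on the opposite strand CTTCCT, is a core shared by ETS factors, and TGTGGT, on the opposite strand ACCACA, is the core of the RUNX1 site. The PU.1 and ETS letters overlap where GAGGAAG occurs.
chr13 intergenic, nearest start UBBP5, chr13:87776363-87776662, + strand: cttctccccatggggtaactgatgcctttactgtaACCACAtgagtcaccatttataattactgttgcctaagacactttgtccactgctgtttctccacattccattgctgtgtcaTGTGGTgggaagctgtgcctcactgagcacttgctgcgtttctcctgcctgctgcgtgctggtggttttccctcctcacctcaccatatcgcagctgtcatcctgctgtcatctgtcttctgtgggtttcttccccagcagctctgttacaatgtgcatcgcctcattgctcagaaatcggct
intron of TBC1D5, chr3:18024681-18024980, + strand: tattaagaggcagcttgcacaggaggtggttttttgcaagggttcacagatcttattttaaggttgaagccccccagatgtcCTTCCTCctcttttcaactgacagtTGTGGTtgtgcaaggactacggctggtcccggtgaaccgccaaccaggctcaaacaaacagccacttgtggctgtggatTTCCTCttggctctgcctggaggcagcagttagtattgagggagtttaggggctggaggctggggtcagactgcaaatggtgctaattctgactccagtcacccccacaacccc
intron of CLNK, chr4:10642177-10642476, + strand: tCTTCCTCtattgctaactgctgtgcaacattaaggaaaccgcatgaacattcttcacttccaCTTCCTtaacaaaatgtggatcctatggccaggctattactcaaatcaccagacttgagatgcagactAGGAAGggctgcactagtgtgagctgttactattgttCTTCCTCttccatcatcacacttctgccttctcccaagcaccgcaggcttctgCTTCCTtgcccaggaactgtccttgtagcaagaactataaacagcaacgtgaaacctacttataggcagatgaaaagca
intron of DHRS12, chr13:52368062-52368361, + strand: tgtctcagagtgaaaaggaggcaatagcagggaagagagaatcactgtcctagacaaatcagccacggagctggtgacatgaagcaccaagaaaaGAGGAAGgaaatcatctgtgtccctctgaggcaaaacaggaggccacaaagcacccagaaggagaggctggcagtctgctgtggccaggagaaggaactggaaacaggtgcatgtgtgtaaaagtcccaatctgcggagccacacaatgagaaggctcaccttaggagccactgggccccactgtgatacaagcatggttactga
exon of SIDT1, chr3:113325746-113326045, + strand: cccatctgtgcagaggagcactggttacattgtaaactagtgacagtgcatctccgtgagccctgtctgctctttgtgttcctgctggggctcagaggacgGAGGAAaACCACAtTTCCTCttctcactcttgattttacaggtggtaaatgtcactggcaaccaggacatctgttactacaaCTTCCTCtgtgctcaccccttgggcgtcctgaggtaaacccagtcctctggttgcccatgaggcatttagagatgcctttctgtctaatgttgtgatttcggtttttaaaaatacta

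The window at SIDT1 holds a PU.1 match, a RUNX1 match and a second PU.1 match with single letters between them, and the window in CLNK holds 5 ETS matches. The peak with the most tags of all, on chromosome 13, has none of the PU.1 and ETS letters and instead holds RUNX1, C/EBP and AP-1 matches. The words of 32 bases in each of these 5 windows occur at a median of 1 place in the genome.

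Every false discovery rate in the list of precipitation 1 was 100%, including those of the 234 peaks. MACS estimates this rate by exchanging precipitate and input. In precipitation 2 the rates lay between 0.74% and 16.67%. The list of precipitation 1 has 15017 peaks holding 988363 tags, and that of precipitation 2 has 152779 peaks holding 4172422 tags. The lists give tags in peaks and no total of sequenced reads. The study states a minimum of reads that every sample reached, and the depth of each precipitation beyond that minimum is not known here. As a check of the cell line, a start of 7 of 10 myeloid marker genes lay within 1000 bp of H3K4me3 regions of both replicates (SPI1, CD33, MPO, CEBPA, ITGAM, FCGR1A and LILRB1), while CSF1R, LYZ and CD14 had the mark in replicate 1 alone. None of 5 T cell, 4 erythroid, 3 epithelial and 2 liver markers had it in both.

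The 234 peaks were chosen by their tags, their length and the missing overlap, so these values are a description. They held 100 to 345 tags, with a median of 115, and 160 of them held at most 124. Their length was 660 to 1497 bp, with a median of 1300 bp. The fold enrichment over the local background, from the same precipitation, had a median of 10.0 (3.84 to 26.6), beside 5.57 over all precipitation 1 peaks and 7.58 in the 128 equally compact and tag-rich peaks that did overlap precipitation 2. Since a peak needs many tags in a short stretch to be among the 234, nothing is read from these differences.

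**Figure D1:**
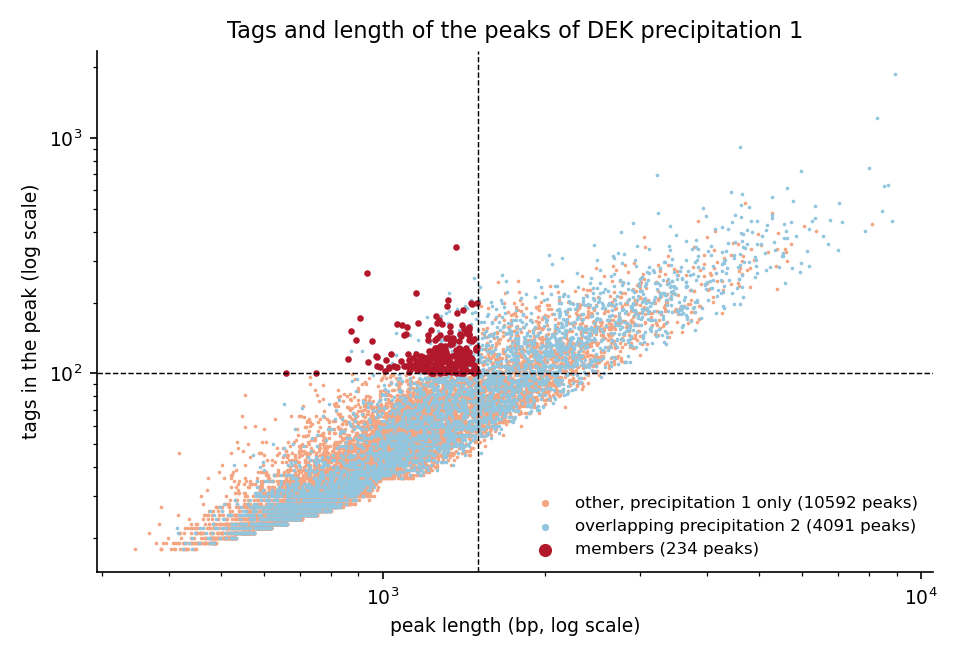
Length (bp, log scale) and number of tags (log scale) of the 14917 precipitation 1 peaks, 1 point per peak, with dashed lines at 100 tags and 1500 bp. The 234 members (dark red) lie in the upper left field, together with 128 peaks that overlapped precipitation 2 (blue, partly hidden).

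Overlap with precipitation 2 was missing in 72.6% of all precipitation 1 peaks, so the absence by itself is common in this list. The nearest precipitation 2 peak lay 37 to 105980 bp away, with a median of 6008 bp. It was within 500 bp for 24 peaks, within 1000 bp for 33 and within 10000 bp for 156, while 3 had none within 50000 bp. The peaks nearest to the limit were at EHHADH-AS1 (37 bp), in an intron of TGFBR2, a receptor of transforming growth factor beta (45 bp), and at ENSG00000224361 (51 bp). Just outside it, compact tag-rich peaks at ZFHX3, ENSG00000188897 and ENSG00000291107 had 374, 404 and 410 bases covered by precipitation 2. At the tag limit, RPL5, LINC02785 and FRMD4A are the nearest genes of peaks with 100 tags, and CD82, RNU6-745P and ENSG00000267423 those of peaks with 99 tags. At the length limit the peaks at CYTH4 and REXO1L12P (1497 bp) and PSD3 (1495 bp) fell inside, and those at ENSG00000288901 (1501 bp), GIN1 (1504 bp) and FGL1 (1514 bp) fell outside. The list of precipitation 2 does not give tags outside its peaks, so how many tags it had at the 234 places was not analysed here.

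H3K4me3 was not used to choose the peaks. Regions of H3K4me3 replicate 1 overlapped 208 of the 234, or 88.9% (95% Wilson interval 84.2% to 92.3%), beside 50.2% of all precipitation 1 peaks. For H3K4me3 replicate 2 the number was 151, or 64.5% (58.2% to 70.4%), beside 34.0%. Both replicates overlapped 146 peaks, or 62.4% (56.0% to 68.4%), where the share over all precipitation 1 peaks was 32.9%. Only 21 peaks, or 8.97%, had the mark in neither replicate, compared with 48.7% of all. Of the rest, 62 had it in replicate 1 alone and 5 in replicate 2 alone. The H3K4me3 list of replicate 1 is the longer one, with 47523 regions covering 87.4 Mb against 29335 covering 57.6 Mb. Wilson intervals here cover counting error only. Peaks of 1 precipitation are not replicates, and no test was made between groups of peaks.

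Where a member overlapped a marked region, its summit mostly lay inside, as it did in the list as a whole. This was so in 194 of 208 peaks for replicate 1, or 93.3%, beside 95.6% of all overlapping precipitation 1 peaks, and in 137 of 151 for replicate 2, or 90.7%, beside 94.4%. For both replicates at once this was 127 of 234, or 54.3% (47.9% to 60.5%), a measure that does not grow with the length of the DEK peak. The same share was 50.8% (42.2% to 59.3%) in the 128 compact tag-rich peaks shared with precipitation 2, whose interval overlapped that of the members. It was 31% over all precipitation 1 peaks and 26.0% (25.1% to 26.9%) in the 8821 compact peaks of precipitation 1 alone with fewer than 100 tags, whose median length was 885 bp. The regions around the members had median lengths of 2104 bp and 2193 bp in the 2 replicates. The peak at MEF2C, a transcription factor gene active in myeloid cells, muscle and neurons, is an exception: its 905 bp had no base covered by replicate 1 and 471 bases covered by replicate 2.

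**Figure D2:**
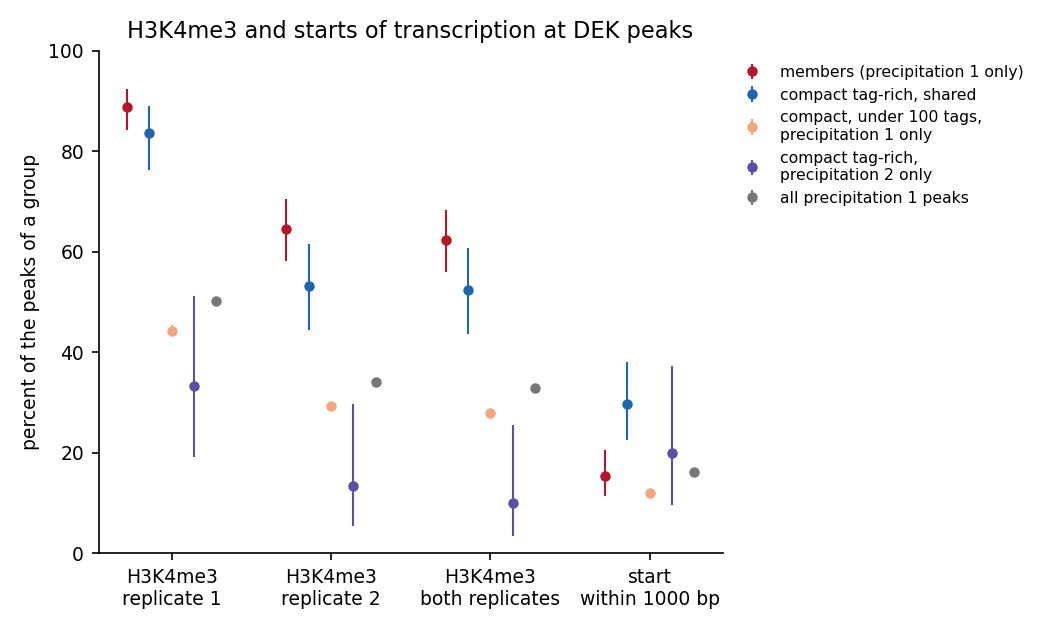
Percent of the peaks of 5 groups that overlapped H3K4me3 regions or had a summit within 1000 bp of a start of transcription. Points are shares and bars 95% Wilson intervals, which cover counting error only. The members (dark red) have the highest H3K4me3 shares, with intervals that overlap those of the shared peaks (blue), and a share of starts close to that of all precipitation 1 peaks.

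Starts of transcription were close to few of these peaks. The summit lay within 1000 bp of an annotated start in 36, or 15.4% (11.3% to 20.6%), beside 16.2% of all precipitation 1 peaks, and 18 of them, or 7.69%, were near a protein-coding start. For the 128 compact tag-rich peaks that overlapped precipitation 2 the shares were 29.7% (22.5% to 38.1%) and 22.7% (16.3% to 30.6%). The members had the lower share, and the intervals of these 2 groups did not overlap for either measure. The median distance to a start was 8507 bp, 105 peaks, or 44.9%, were more than 10000 bp away and 20, or 8.55%, more than 50000 bp, beside 44.6% and 9.05% of all precipitation 1 peaks. By position of the summit, 137 peaks, or 58.5%, were intronic and 78, or 33.3%, intergenic, beside 57.8% and 31.4% of all. These shares were near the background. The other 19 were exonic, of which 5 lay in an untranslated region and 4 in coding sequence.

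**Figure D3:**
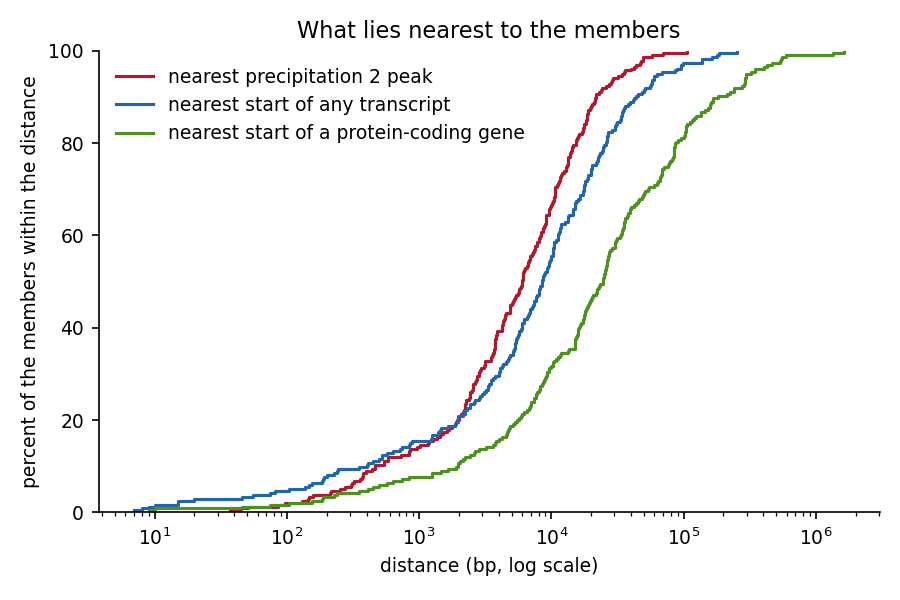
Cumulative percent of the 234 members by distance (bp, log scale) from the peak to the nearest precipitation 2 peak and from the summit to the nearest start of any transcript or of a protein-coding gene. Median distances are 6008, 8507 and 24654 bp.

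H3K4me3 was about as frequent away from starts as near them. Among the 198 peaks farther than 1000 bp from any start, 123, or 62.1% (55.2% to 68.6%), had the mark in both replicates, and 63.9% (47.6% to 77.5%) of the 36 nearer peaks did. In the compact tag-rich peaks shared with precipitation 2, 34 of 90 peaks away from starts had it, or 37.8% (28.5% to 48.1%), against 86.8% (72.7% to 94.2%) of the 38 near starts. Over all precipitation 1 peaks it was 27.1% of 12496 away from starts and 62.9% of 2421 near them. Away from starts the members had a larger share than the shared peaks, with intervals that did not overlap. This did not hold for the compact peaks of precipitation 1 alone below the tag limit. Away from starts their share was 24.6% (23.6% to 25.5%) of 7767, below that of the shared peaks. In replicate 1 of H3K4me3 the shares of members and shared peaks away from starts were closer, at 88.9% (83.8% to 92.5%) and 80.0% (70.6% to 87.0%).

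The peak with the most tags, 345, covers chr13:87775955-87777321 and lies 94746 bp from the nearest start, that of the ubiquitin pseudogene UBBP5. Its fold enrichment was 21.27, all of its 1367 bp were covered by H3K4me3 replicate 2 and 1188 bp by replicate 1. A peak of 219 tags in an intron of TBC1D5, which regulates endosomal sorting, had a fold enrichment of 17.86 and no precipitation 2 peak within 46539 bp. In CLNK, an adaptor of immune receptor signalling, an intronic peak of 200 tags was covered over its whole 1456 bp by both H3K4me3 replicates. Far from any start as well, 96033 bp from GLI3, a transcription factor of hedgehog signalling, a peak held 194 tags at a fold enrichment of 23.09. At CLNK the fold enrichment was 8.35, below the median of the members. All 4 peaks had H3K4me3 in both replicates and no start within 1000 bp, which held for 123 of the 234.

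The other peaks among the 15 with the most tags held 163 to 267 tags. They lay near FAM230E, REXO1L12P, DNAH17 and AC000403.1, near the start of MEF2C, and in introns of TPRG1, TMEM104, C1QTNF7, LINC03002, CDH13 and MIR4432HG. Not all were strongly enriched. The peak near REXO1L12P, in a repeated gene family, had 199 tags but a fold enrichment of 3.84, the lowest of all 234, and that near FAM230E had 267 tags and a fold enrichment of 5.9.

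The highest fold enrichments belonged to peaks in introns of DHRS12 (26.56), SYN3 (24.73) and PKHD1 (24.05) and to peaks near CYBB (24.03) and MSN (23.67). CYBB encodes the catalytic subunit of the phagocyte NADPH oxidase, and its peak, of 108 tags, lay 24745 bp upstream of the start. Of its 1191 bp, 1099 were covered by H3K4me3 replicate 1 and 865 by replicate 2, and its window holds PU.1, ETS and RUNX1 matches. MSN encodes moesin, which links actin to the membrane. Its peak held 133 tags, lay 14955 bp downstream of the start and was covered over all of its 1345 bp in both replicates. The nearest precipitation 2 peaks were 49137 bp away from the peak at CYBB and 35140 bp away from the peak at MSN.

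Near starts, the most tags were at MEF2C (172 tags, 184 bp from the start), at SIDT1, a membrane protein related to RNA channels (150 tags, 637 bp), and at ADGB, an androglobin gene (148 tags, 736 bp). The next were ENSG00000235564 with 144 tags, ZFP64 with 139, MTF2, a partner of the Polycomb complex, and RNU5B-3P inside EXOSC7 and CLEC3B with 123. C3orf86P and ENSG00000290079 had 121 each, and PELATON, a noncoding RNA of monocytes, had 120. Of the 36 peaks near starts, 18 were near a protein-coding one.

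Few of the peaks, and few of all precipitation 1 peaks, were at genes of the lists of myeloid biology. Of 13 myeloid transcription factors only RUNX1 itself contained members, 2 within its introns, with 131 tags (fold enrichment 19.81) and 116 tags (13.09). They lay 18774 and 33927 bp from the nearest start, and H3K4me3 of both replicates overlapped both. Over all precipitation 1 peaks 24, or 0.161%, were at these 13 genes, beside 0.855% of the members, a share that rests on those 2 peaks. None of the 234 was at 9 AP-1 genes, 15 leukocyte adhesion and cytoskeleton genes, 9 myeloid granule genes, 14 leukaemia genes or 91 histone genes. Of all precipitation 1 peaks 0.0268%, 0.0603%, 0.0134%, 0.101% and 0.261% were at these lists, so a count of 0 among the members is near the background. Among 83 cytosolic ribosomal protein genes 1 had a member, RPL5, whose start lay 9 bp from the summit of a 100-tag peak with a fold enrichment of 5.48 (0.427% of members, 0.154% of all). Small noncoding RNA genes accounted for 2, RNU6-696P and RNU5B-3P, or 0.855% beside 0.851% of all.

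In 7 places a pair of members lay within 100000 bp of each other, and no larger cluster was found. One pair was at BCL2, which encodes an inhibitor of apoptosis: a peak of 147 tags beyond the gene and a peak of 105 tags in an exon, 74 bp from a start, spanning 27214 bp. In MYO10, an unconventional myosin, 2 intronic peaks of 118 and 107 tags spanned 3209 bp. Both peaks near SPTBN1, a spectrin, were covered over their whole length by both H3K4me3 replicates. The remaining pairs were near AC000403.1 on chromosome 13, in MIR4432HG, at ATP10D and in RIPOR2. By chromosome, 23 members were on chromosome 1, 22 on chromosome 2 and 20 on chromosome 5. Per 100 precipitation 1 peaks the number ranged from 0.435 on chromosome 14 to 4.76 on chromosome 22, where 7 members stood among 147 peaks.

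The base composition of the windows was near that of the whole list. The median GC content was 49.3% (38.3% to 67.3%), compared with 48.7% over all precipitation 1 peaks, 58.3% in the compact tag-rich peaks shared with precipitation 2 and 47.3% in the compact precipitation 1-only peaks with fewer than 100 tags. A GC content of at least 60% was found in 11 members, or 4.70% (2.64% to 8.22%), beside 6.56% of all precipitation 1 windows, and in 38.3% (30.3% to 46.9%) of the shared peaks. The median number of CpG dinucleotides was 4 and 9. It was thus the shared peaks that stood away from the list in GC content, and the members did not.

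ETS and PU.1 letters were the most frequent of the 17 motifs searched on both strands. AGGAAG was found in 179 of the 234 windows, or 76.5% (70.7% to 81.5%), beside 45.4% of all precipitation 1 windows and 26.0% of all 300 bp tiles of the genome. GAGGAA was found in 134, or 57.3% (50.9% to 63.4%), beside 34.0% of precipitation 1 windows and 22.3% of tiles. The longer GAGGAAGT, which contains both, occurred in 41, or 17.5% (13.2% to 22.9%), beside 7.46% and 1.55%. In the shared peaks it occurred in 19.5%. At least 1 of GAGGAA and AGGAAG was present in 190 windows, or 81.2% (75.7% to 85.7%), beside 53% of all precipitation 1 windows and 70.3% (61.9% to 77.5%) of the shared peaks. A match is a description of the letters and does not show that a factor was bound.

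RUNX1 and C/EBP letters were more frequent than the background too. TGTGGT was found in 114 windows, or 48.7% (42.4% to 55.1%), beside 30.7% of all precipitation 1 windows and 19.7% of tiles, and TTNNGCAA (C/EBP) in 64, or 27.4% (22% to 33.4%), beside 15.3% and 15.8%. TGANTCA (AP-1) was found in 39, or 16.7%, with the 12.5% of all precipitation 1 windows inside the interval of the members (12.4% to 22%). RUNX1 letters stood together with PU.1 or ETS letters in 97 windows, or 41.5% (35.3% to 47.9%), beside 17.8% of all precipitation 1 windows and 21.1% of the shared peaks. In 24 windows, or 10.3%, PU.1 or ETS, RUNX1 and C/EBP letters were all present, beside 3.10% and 3.91%. Joint shares rise when the share of each motif rises. Whether the letters stood together more often than their single shares give was not tested. In 18 windows, or 7.69%, none of these and no AP-1 match was found, beside 27.4% and 14.1%. Among letters known from promoters, GGGCGG and CACGTG were near the background in the members and more frequent in the shared peaks. GGGCGG (SP1 GC box) was found in 8.55% (5.60% to 12.8%) of members, 11.9% of all precipitation 1 windows and 21.1% (14.9% to 29%) of shared peaks. CACGTG (USF1) was found in 3.42% (1.74% to 6.60%), 4.96% and 10.9% (6.63% to 17.5%). Other promoter letters went differently. CCAAT (NF-Y) was found in 20.1% (15.5% to 25.7%), 26.8% and 22.7% (16.3% to 30.6%), so the list lay above the interval of the members. TATAAA was found in 11.1% (7.70% to 15.8%), 14.7% and 3.91% (1.68% to 8.82%). Neither was more frequent in the shared peaks than in the list as a whole.

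Compared with the shared peaks, ETS letters were similarly frequent. AGGAAG was present in 68.0% (59.5% to 75.4%) of the 128, GAGGAA in 45.3% (37% to 53.9%), TGTGGT in 35.2% (27.4% to 43.8%) and TTNNGCAA in 17.2% (11.6% to 24.7%). All 4 shares were below those of the members, but the intervals overlapped. The longer GAGGAAGT went the other way, at 19.5% (13.6% to 27.2%) of the shared peaks and 17.5% (13.2% to 22.9%) of members. Those intervals overlapped too. Since the shared peaks are richer in GC, the shares were also taken over windows with a GC content of 45% to 55%. AGGAAG was then found in 79.5% (72.6% to 85.0%) of 161 members, 80.0% (64.1% to 90.0%) of 35 shared peaks, 45.1% of all precipitation 1 windows and 29% of genome tiles of that composition. For TGTGGT these shares were 54.0%, 37.1%, 31.9% and 24.3%. Within this range of GC the members and the shared peaks had nearly the same share of ETS letters, and both were above the list as a whole.

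The ETS letters were placed towards the summit. In 118 windows, or 50.4% (44.1% to 56.8%), an AGGAAG match lay within 50 bp of it, beside 23.9% of all precipitation 1 windows, and 103 windows, or 44%, held 2 or more matches, beside 18.7%. In bins of 30 bp, the share of windows with a match was 20.9% just right of the summit and 18.8% just left of it, and 6.41% and 9.83% in the outermost bins. RUNX1 letters lay within 50 bp of the summit in 61 windows, or 26.1% (20.9% to 32%), beside 14.4% of all. A rise towards the summit was also present in all precipitation 1 windows, from 4.67% in the leftmost bin to 8.58% just right of the summit, and in the shared peaks, from 7.03% to 19.5%. Within 50 bp of the summit 41.4% (33.2% to 50.1%) of the shared peaks held AGGAAG, with an interval that overlapped that of the members.

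**Figure D4:**
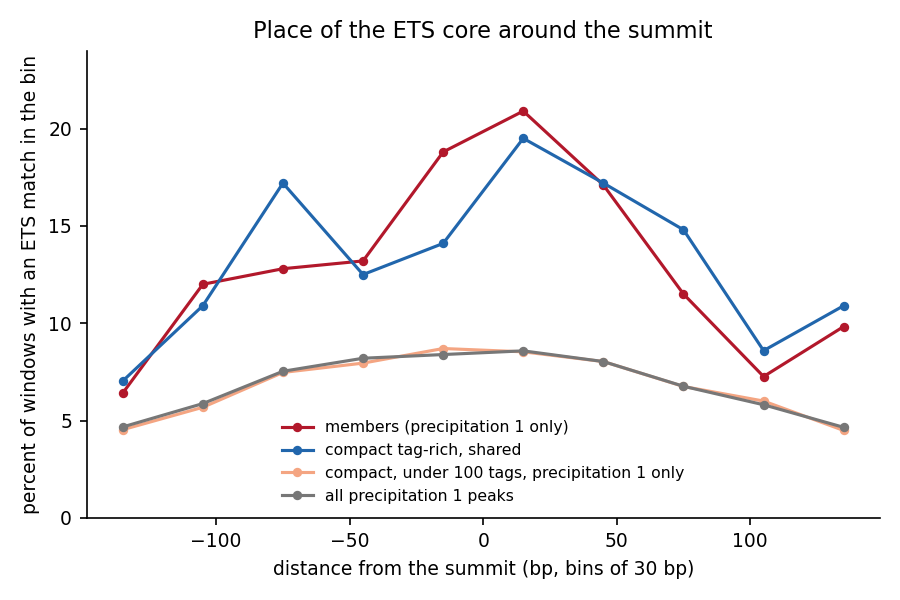
Percent of windows with an AGGAAG match on either strand in bins of 30 bp by distance (bp) from the summit, for 4 groups of peaks. The members (dark red) rise from 6.41% in the leftmost bin to 20.9% beside the summit, the shared peaks (blue) from 7.03% to 19.5% and all precipitation 1 peaks (grey) from 4.67% to 8.58%.

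The share of ETS letters differed by less than its intervals between places. AGGAAG was found in 76.8% (70.4% to 82.1%) of the 198 windows far from a start and in 75% (58.9% to 86.2%) of the 36 near one, beside 45.1% and 47.2% of all precipitation 1 windows. With H3K4me3 in both replicates it was present in 74.7% of 146 windows, beside 61.6% of all precipitation 1 windows with the mark, and with the mark in neither replicate in 17 of 21, or 81.0%, beside 28.4%. Among the most frequent 8-letter words, ranked by the excess of their share over that in genome tiles and listed after their values were seen, 18 of 20 contained GGAA or its complement. The first was AGAGGAAG, in 56 windows or 23.9%, beside 9.98% of precipitation 1 windows and 3.02% of tiles. The second was AGGAAGTG, in 50 windows or 21.4%. In the shared peaks AGAGGAAG was found in 17.2% and AGGAAGTG in 26.6%.

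With the tag limit loosened, the same features could be followed down the list of compact precipitation 1-only peaks. H3K4me3 in both replicates was found in 8.52% of the 2665 peaks with 18 to 29 tags, 26.1% of 3514 with 30 to 49, 46.9% of 2033 with 50 to 74 and 57.8% of 609 with 75 to 99. Among the members it was 61.2% of 160 with 100 to 124 tags and 64.9% of the 74 with more. AGGAAG followed the same course, from 31.0% over 44.5%, 60.3% and 70.4% to 77.5% and 74.3%, and TGTGGT went from 28.5% to 48.1% and then 37 of 74 windows. The steps below 100 tags were larger than their intervals for H3K4me3 and AGGAAG, whereas the intervals of the last 3 classes overlapped. For H3K4me3 and AGGAAG no step stood out at 100 tags. The largest step of TGTGGT was there, from 39.9% (36.1% to 43.8%) to 48.1% (40.5% to 55.8%), with intervals that overlapped. Starts of transcription did not follow this course, with 8.74% in the lowest class, 18.8% from 100 to 124 tags and 8.11% (3.77% to 16.6%) above. Peak length rises with the tags in this list, and its part in these shares was not tested.

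**Figure D5:**
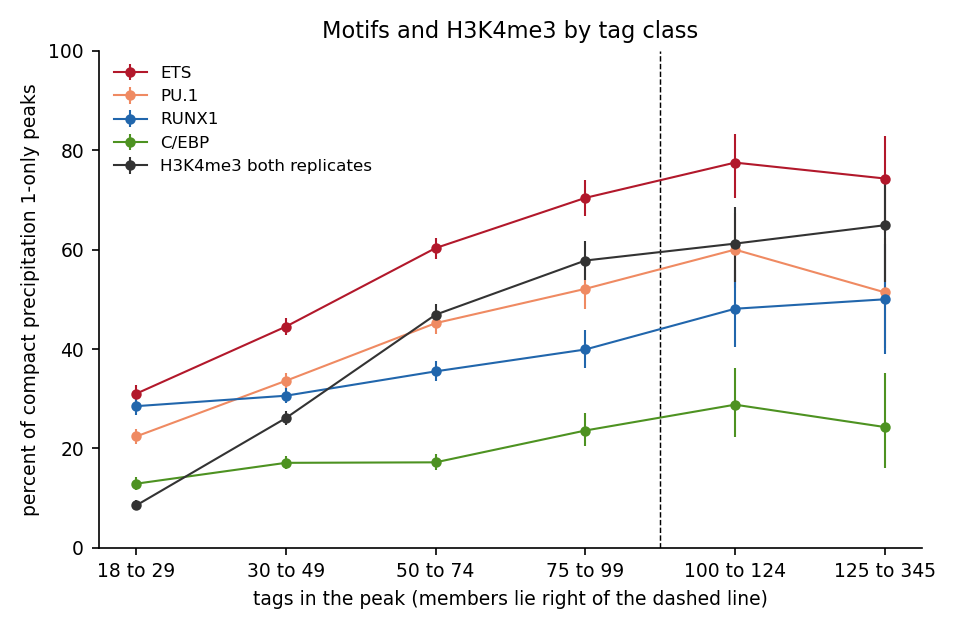
Percent of the compact precipitation 1-only peaks that overlapped H3K4me3 of both replicates or held the named letters in the summit window, by tags in the peak. Points are shares and bars 95% Wilson intervals for counting error. H3K4me3 rises from 8.52% to 64.9% and the ETS letters from 31.0% to 74.3%.

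Repeated sequence accounted for few of the peaks. In 223 windows, or 95.3% (91.8% to 97.4%), most 32-base words occurred once in the genome, beside 79.9% of all precipitation 1 windows. The share was much the same in the 128 compact tag-rich peaks shared with precipitation 2, at 94.5% (89.1% to 97.3%). It was 95.6% (93.6% to 96.9%) in the 609 compact precipitation 1-only peaks with 75 to 99 tags. None of the 234 windows was mostly of words with 100 or more copies, where the share over all precipitation 1 windows was 3.22%, and a count of 0 allows up to 1.62% by the Wilson interval. None of the 128 shared peaks had such a window either. Among the 11 windows with mostly repeated words were those near FAM230E and REXO1L12P, whose words occurred at medians of 12 and 8 places. Only 1 pair of members shared sequence, the peaks near PPIAL4G on chromosome 1 and near ENSG00000213956 on chromosome 5. An assembly gap of at least 10000 unknown bases lay within 1000000 bp of 25 summits, or 10.7% (7.34% to 15.3%), beside 11.7% of all, a share near the background.

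The reverse group, compact tag-rich peaks of precipitation 2 without a counterpart in precipitation 1, had 30 peaks and looked different. Windows mostly of unique words made up 23.3% (11.8% to 40.9%) of it, a gap lay within 1000000 bp of 43.3% (27.4% to 60.8%), and H3K4me3 of both replicates overlapped 3 peaks, or 10.0% (3.46% to 25.6%). AGGAAG was found in 5 of its windows, or 16.7% (7.34% to 33.6%). In all 4 measures the interval did not overlap that of the 234 members. The 2 groups were cut from lists of very different length and from precipitations whose own depths are not known here, and differences of precipitation and of depth cannot be told apart with 1 list each.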

How the data were processed

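Chromatin of U937 cells was precipitated with antibodies against DEK and H3K4me3, with non-precipitated chromatin as control. Per the submitters' processing notes and the study's methods, the authors aligned reads to hg19 with Bowtie2 and called peaks with MACS 1.4.1 at default parameters, separately in each precipitation. The deposited DEK lists give for every peak an unnormalized count of tags, a score (the −log10 p-value of MACS multiplied by 10), a fold enrichment (a ratio over the local background) and a false discovery rate in percent. The deposited H3K4me3 lists give positions only, and the parameters used to call them are not given in the sources used here. Files of the control samples were not used here. A few items are not reported here.

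The 234 members and all lists were chosen with earlier results of these data known. Overlaps counted from 1 bp. Starts, exons and genes came from GENCODE release 44 mapped to GRCh37. Windows of 300 bp on the summit were searched for 17 motifs on both strands, and copies of their 32-base words were counted over the genome. Shares have 95% Wilson intervals for counting error, and no test was made. Named peaks were the 15 with the most tags, the 5 with the highest fold enrichment, the 10 with the most tags within 1000 bp of a start, the 5 with the most tags with H3K4me3 in both replicates, those at genes of the lists, the 3 nearest to each limit on either side, and families sharing sequence; pairs within 100000 bp were named after their values were seen, as was the range of GC content. Values were computed in Python 3.11.15 with Numba 0.67.0, NumPy 2.4.6, SciPy 1.17.1 and pandas 2.3.3, and drawn with Matplotlib 3.10.9. The functions passed 6 of 6 checks on simulated data.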

Additional observations from a re-analysis of the deposited data

How the results depend on the processing

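Of 86 recomputed values for 8 results, 66 stayed within the limits set around the main value. For the number of members these limits were 156 to 351, a chosen range and not an error. The number of members, 234, followed its limits: 27 with at least 150 tags, 843 with at least 75, 13 up to 1000 bp, 578 up to 2000 bp and 362 without DEK replicate 2. The share near a start, 15.4%, was 7.41% with at least 150 tags, 7.69% for protein-coding genes and 20.9% within 2000 bp. The PU.1 share, 57.3%, was 44.4% with at least 150 tags, 76.5% for AGGAAG and 36.3% within 50 bp of the summit, an alternative chosen after seeing the data, as was leaving out repeated windows. The H3K4me3 share, 62.4%, was 53.8% up to 1000 bp and ranged from 58.8% to 88.9% when 1 replicate was left out, the highest without H3K4me3 replicate 2. The median GC content, 49.3%, was 52.0% without DEK replicate 2 and 45.3% over whole peaks. The median distance to precipitation 2, 6008 bp, was 10390 bp up to 1000 bp of length, 7472 bp with no precipitation 2 peak within 1000 bp and 2214 bp without DEK replicate 2 in the rule. The share near a gap, 10.7%, was 15.4% up to 1000 bp of length and 2.14% within 100000 bp. Leaving out DEK replicate 1 gave no value, since the rule needs it. No paired analysis was possible because the results come from counts of regions and from no test. The depth of each precipitation is known only as a minimum, each precipitation is 1 sample, and the false discovery rate of precipitation 1 was 100%, so the number of false peaks among the members could not be estimated.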
